A study of Mus musculus with 2 samples.

Results

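The forkhead family comprised 44 of the 21938 protein-coding genes on chromosomes 1 to 19, X and Y of the mouse annotation used (GENCODE M21, coordinates of mm10). Members were chosen by symbol alone, as Fox followed by a letter from a to s and a digit, so the rule itself uses no measured value. They fell into 19 subfamilies by letter, from Foxa to Foxs, with 1 to 4 members each. Open chromatin was described at their promoters, within 500 bp of an annotated transcription start, and at distal sites, over 1 kb from every annotated start and within the gene body plus 100 kb on each side.

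Embryos of the mouse strain B6NCrl, males and females pooled, were taken at 14.5 days of age, and the embryonic facial prominence was studied, the swellings from which the face forms. It was profiled by DNase-seq, in which DNase I cuts accessible DNA in nuclei and the released ends are sequenced. The series held 1 group of 2 biological replicates, which were separate biosamples that list 1 common donor, with no treatment, mutant or other tissue. Each replicate had its own list of peaks of 150 bp, with the authors' score, and its own list of broader hotspots, and the read depth is unknown.

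With 2 samples in 1 group no test between conditions was possible, and genes are not replicates, so all values below are descriptions beside the same values over all protein-coding genes. Replicate 1 had 304233 peaks and replicate 2 had 217980, with median scores of 50 and 37, and the longer list can hold weaker regions. Scores therefore rank peaks within a list and are not a measure of change between replicates. In whole tissue, fewer cells of a type and less opening per cell cannot be told apart, and a gene without a called peak is not shown to be closed. The dissected tissue was checked against marker lists. A promoter peak in both replicates, found for 67.4% of all protein-coding genes, was present for 13 of 13 facial mesenchyme markers, 10 of 10 of oral and surface epithelium and 6 of 8 of the lower jaw. Counts near or above that share were found for forebrain and eye (11 of 13), neural crest glia (5 of 6) and endothelium (7 of 9). The same held for multiciliated cells (4 of 5) and thymus epithelium (3 of 4). Counts were lower for liver and endoderm (1 of 8), thyroid and pituitary (1 of 8) and limb and trunk (2 of 6). Regulatory T cells (2 of 6) and inner ear and pharyngeal pouch (3 of 6) were lower too. Thymus epithelium thus stood beside the lower jaw, and these small lists do not separate facial from all other tissue.

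Forkhead proteins are transcription factors that share a winged-helix DNA-binding domain and recognise related sequences such as TGTTTAC. Some (FoxA, FoxD3) can bind nucleosomal DNA, others (FoxO, FoxM1) relay insulin signalling or the cell cycle, and many pattern embryonic tissue. In the face, FoxC, FoxD and FoxF factors act in mesenchyme derived from the neural crest, several of them downstream of hedgehog signals. FoxE1 and FoxI3 act in pharyngeal and oral epithelium.

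The sequences below are the distal sites of highest combined rank in the windows of 5 members with known roles in craniofacial tissue, and the highest ranked family site that holds the forkhead string. They are shown as examples of strong distal sites near these genes. Each is the 150 bases of the replicate 1 peak in the site, on the plus strand of GRCm38 (mm10), with matches to the strings searched in capitals and all other bases in lower case.

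Foxc1, chr13:31801316-31801465: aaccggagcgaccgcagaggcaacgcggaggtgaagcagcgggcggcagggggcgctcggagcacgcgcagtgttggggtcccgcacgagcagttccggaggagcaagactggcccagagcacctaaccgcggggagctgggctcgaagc

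Foxc2, chr8:121125616-121125765: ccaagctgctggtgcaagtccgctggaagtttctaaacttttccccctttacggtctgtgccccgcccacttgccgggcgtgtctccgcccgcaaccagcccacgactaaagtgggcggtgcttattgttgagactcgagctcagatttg

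Foxd1, chr13:98391336-98391485: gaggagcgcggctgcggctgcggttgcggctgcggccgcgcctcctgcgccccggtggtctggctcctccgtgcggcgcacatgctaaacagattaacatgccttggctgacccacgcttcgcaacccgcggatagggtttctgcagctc

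Foxe1, chr4:46390576-46390725: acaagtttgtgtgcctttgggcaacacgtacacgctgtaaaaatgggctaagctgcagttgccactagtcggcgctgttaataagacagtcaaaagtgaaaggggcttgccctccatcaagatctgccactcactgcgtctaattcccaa

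Foxl2, chr9:98979836-98979985: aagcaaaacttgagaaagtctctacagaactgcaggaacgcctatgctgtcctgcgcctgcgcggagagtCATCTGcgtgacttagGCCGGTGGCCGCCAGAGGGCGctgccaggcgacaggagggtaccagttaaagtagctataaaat

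Foxo3, chr10:42203416-42203565: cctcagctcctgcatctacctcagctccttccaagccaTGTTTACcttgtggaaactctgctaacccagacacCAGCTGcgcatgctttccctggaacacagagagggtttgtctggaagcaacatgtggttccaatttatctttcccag

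The Foxc1 site is intergenic, 5.24 kb upstream of the Foxc1 start, and scored 97 in replicate 1 and 98 in replicate 2. The Foxc2 site scored 116 and 95. It lies 9.52 kb downstream of the Foxc2 start but nearest to Foxl1, 2.25 kb upstream of that gene, and inside an intron of the long gene model Gm20388, which spans the whole neighbourhood. Both lie near starts of FoxC genes and hold none of the 10 strings searched. The Foxd1 site (106 and 88) and the Foxe1 site (105 and 93) are intergenic, 37.2 kb and 47.0 kb from the starts of the genes they are listed under, and the Foxe1 site is nearest to another gene, Trmo. The Foxl2 site (93 and 89) is intergenic, 24.6 kb away and nearest to Faim, and carries an E-box (CAGATG, read on the other strand) and, adjoining each other, an AP-2 string and a CTCF match. The Foxo3 site (112 and 86) is in a Foxo3 intron, 73.2 kb from the nearest Foxo3 start, and its capitals mark TGTTTAC and the E-box CAGCTG. None of these distances tells which gene a site serves.

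Of the 44 forkhead genes, 28 (63.6%) had promoter peaks that overlapped between the replicates, against 67.4% of all protein-coding genes. A promoter peak was called in replicate 1 only for 6 of the 44 members, a higher share than the 3.17% of coding genes. It was called in replicate 2 only for 1 of the 44, against 0.921% of coding genes. The other 9 members had none in either replicate, as did 28.1% of coding genes. The share with a shared promoter peak was thus near the background, and the 28 genes ranged widely in score, from 34 to 143 in replicate 1 and from 34 to 128 in replicate 2. Their median scores were 108.5 and 98, below the coding medians of 122 and 111 and inside the coding quartiles (95 to 136 and 80 to 125).

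Among the genes of facial mesenchyme and neural crest, Foxc1 and Foxc2, which act in the skull, eye and vessels, had promoter peaks of 124 and 130 in replicate 1 and of 103 and 116 in replicate 2. Foxd1 and Foxd2, hedgehog-responsive mesenchymal genes, scored 120 and 101 in replicate 1 and 93 and 94 in replicate 2. Foxf1, another hedgehog target, scored 87 and 73, and Foxl2, which is needed for the eyelids and the ovary, scored 92 and 68. These 6 promoters had peaks in both lists, all above the medians of all peaks in the lists. Beside shared promoter peaks of coding genes, Foxf1 and Foxl2 were below the lower quartiles (95 and 80). Foxd3, a regulator of early neural crest and its glia, had weaker promoter peaks of 45 and 37. Foxf2, which acts in palate mesenchyme, had a promoter peak of 65 in replicate 1 and none in replicate 2, where the nearest peak lay 6740 bp from its start.

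In the epithelial group, Foxe1, a gene of thyroid and palate development, had promoter peaks of 51 and 34, and Foxi3, a gene of the pharyngeal region, teeth and hair, had peaks of 83 and 78. The Foxe1 and Foxd3 promoters were no longer shared when only peaks at or above each list's median score were kept. Foxj1, the master regulator of motile cilia, scored 121 and 116, among the top 5% of all peaks in each list. These scores were near the medians of coding genes with shared promoter peaks (122 and 111). Foxq1, known in hair and stomach, had no promoter peak in either replicate. Foxi1, known in inner ear and kidney, had a promoter peak of 35 in replicate 1 only.

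The FoxO, FoxK, FoxP and FoxN genes named here had promoter peaks on either side of the coding medians, while Foxo6 and Foxp3 are described further below. Foxo1 and Foxo3, which are held out of the nucleus by insulin and AKT signalling, scored 109 and 135 in replicate 1 and 105 and 127 in replicate 2. Foxk1, a repressor and metabolic regulator, scored 103 and 118. In the FoxP group, Foxp1 scored 108 and 106, its highest scores in each replicate, which lie at different starts. The pair was 108 and 86 at its most upstream start and 107 and 106 at an internal one. Foxp2, known for its role in vocal circuits, scored 112 and 83, and Foxp4 had the highest promoter scores of the family at 143 and 128. Foxn3, a cell cycle repressor, scored 124 in each replicate, and its promoter was not shared when only its most upstream start was used.

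A different set of members had no shared promoter peak. Foxb1 and Foxb2 (hypothalamus and ventral neural tube), Foxd4, Foxe3 (lens), Foxh1 (the nuclear partner of nodal signalling), Foxp3 (regulatory T cells), Foxq1, Foxr1 and Foxr2 had no promoter peak in either replicate. For Foxp3 the nearest peaks lay 4702 and 4722 bp from its starts, and 2 of 6 regulatory T cell markers had a shared promoter peak. The 6 members with a promoter peak in replicate 1 only included Foxa2 (score 52) and Foxa3 (42), both genes of endoderm, Foxf2 (65), Foxi1 (35) and Foxl1 (46), a gene of gut mesenchyme. Foxo6, a brain FoxO gene, had a promoter peak of 46 in replicate 2 only. The plot of promoter scores by gene shows these beside the shared ones.

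**Figure D1:**
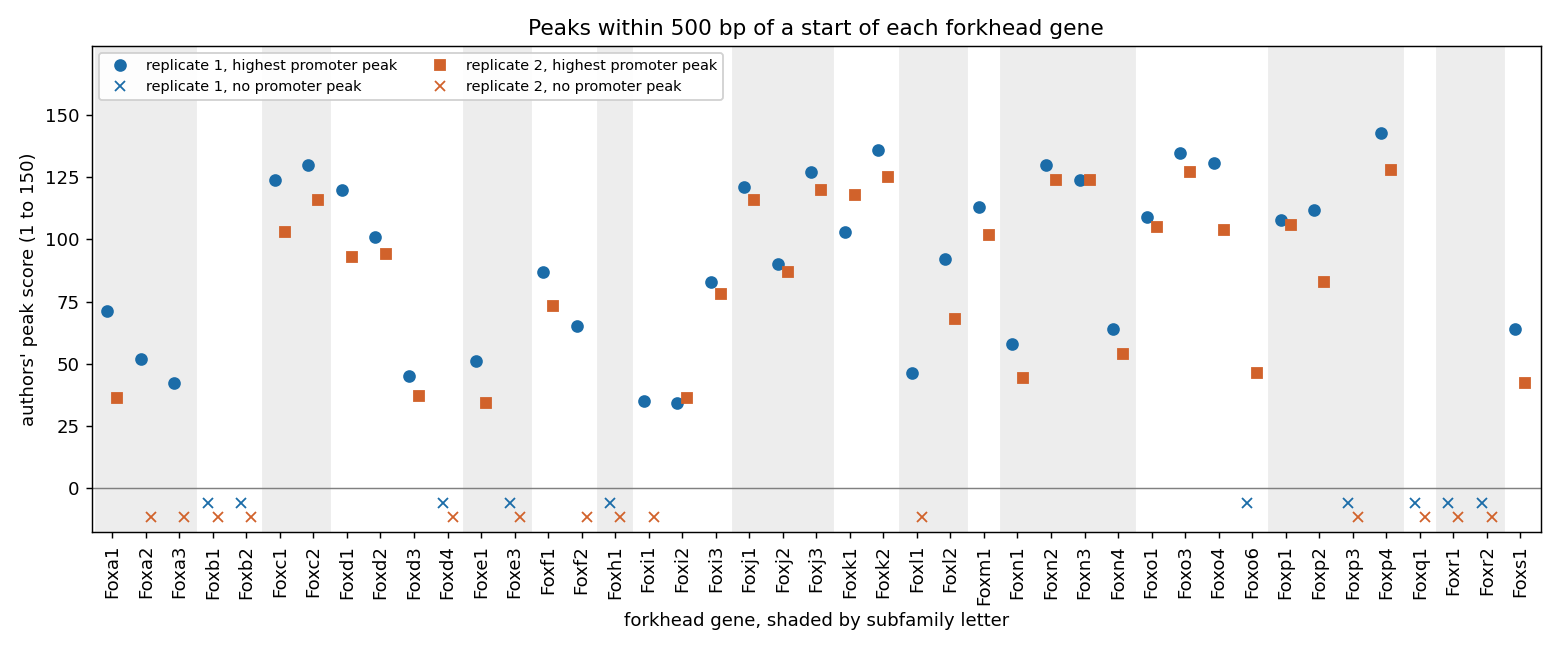
Authors' score of the highest peak within 500 bp of a start of each forkhead gene, circles for replicate 1 and squares for replicate 2, with crosses below 0 where no promoter peak was called. The 28 genes with shared promoter peaks run from 34 to 143 in replicate 1, and the genes with a peak in 1 replicate score 65 or lower.

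Some of these calls turned on the window or the list. A promoter hotspot was shared for 28 members too (68% of coding genes), with Foxo6 gained and Foxi2 lost. The Foxo6 promoter hotspots had a −log10 q of 100, the ceiling of the scale, in both replicates. The Foxi2 promoter peaks (34 and 36) overlapped by fewer than 75 bp. In replicate 2 a peak of 133 lay 698 bp from the Foxa3 start. With a promoter window of 1000 bp, Foxa3, Foxd4 and Foxo6 also had shared promoter peaks.

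Beside genes of like base composition, fewer forkhead promoters had shared peaks. A start was called CpG-rich when the 1001 bases around it held at least 50% GC and an observed over expected CpG ratio of at least 0.6. By this rule 34 members (77.3%) had a CpG-rich start, against 49.2% of coding genes. Of these 34, 25 (73.5%) had a shared promoter peak, against 97.2% of the coding genes with a CpG-rich start. The 9 that did not included Foxa2, Foxb1, Foxb2, Foxe3, Foxf2, Foxl1, Foxo6 and Foxr1. Of these, Foxo6 was gained with the 1000 bp window. With a stricter definition (at least 55% GC and a ratio of at least 0.75), 21 of 26 members had one, against 98.2% of coding genes.

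**Figure D2:**
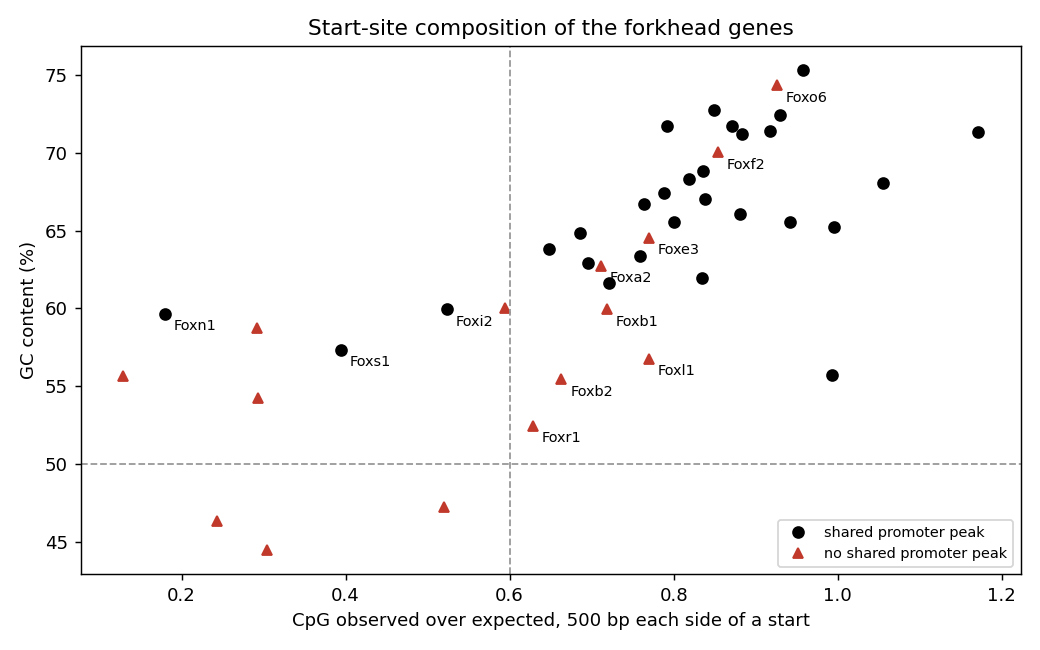
Each point is a forkhead gene, with the CpG observed over expected ratio around a start on the x axis and GC content (%) on the y axis. Circles have a shared promoter peak and triangles do not, and dashed lines at 0.6 and 50% bound the CpG-rich class, with names given for genes in it without a shared peak and the 3 outside it with one.

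Of the 10 members without a CpG-rich start, 3 had a shared promoter peak, near the background of 38.6% of such coding genes. They were Foxi2 (34 and 36), Foxn1 (58 and 44), the regulator of thymus epithelium and hair keratinization, and Foxs1 (64 and 42). These names were chosen after their values were seen, and all 3 scored below the family medians. Gene length gave another split. Of the 26 members under 10 kb, 14 had a shared promoter peak (45.8% of coding genes of that length), and of the 18 longer members, 14 did (79.3% of coding genes).

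By subfamily, every member had a shared promoter peak in Foxc (2 of 2), Foxj (3 of 3), Foxk (2 of 2), Foxn (4 of 4), Foxm and Foxs (1 each). Foxd (3 of 4), Foxo (3 of 4), Foxp (3 of 4), Foxi (2 of 3), Foxe, Foxf and Foxl (1 of 2 each) and Foxa (1 of 3) were mixed. Foxb (0 of 2), Foxr (0 of 2), Foxh and Foxq (0 of 1 each) were among those with none. The members without one were Foxd4 in Foxd, Foxo6 in Foxo and Foxp3 in Foxp. With at most 4 members per letter these counts are descriptions of genes, and the differences between letters were not tested. The Foxi count fell to 1 of 3 with hotspots, lists of equal length, a 75 bp overlap, a 250 bp window or peaks at or above the median score.

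Distal sites were present around every forkhead gene. All 44 members had at least 1 shared distal site in their window, as did 92.4% of coding genes, and the windows held 810 distinct sites of the 140271 in the genome. Because windows of neighbouring members overlap, 47 of the 810 were counted in more than 1 window. The median member had 7.67 shared sites per 100 kb, against 6.29 for coding genes, whose quartiles were 3.34 and 9.14. The order held in each list alone. Replicate 1 gave 12.07 for members against 10.68 for coding genes, and replicate 2 gave 9.55 against 7.50. Of the members, 26 lay above the coding median, 16 above the upper quartile and 4 below the lower quartile. The nearest protein-coding start was a member's own for 461 of the 810 sites.

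The genes with the most sites were long. Foxp1 had 81 shared distal sites, from 186 distal peaks in replicate 1 and 101 in replicate 2, and 62 of the sites lay in its gene body. Foxn3 had 58 (123 and 68 peaks), of which 41 were in the gene body. Foxp2 had 42 (69 and 53 peaks), Foxk1 40 (62 and 45) and Foxp4 40 (60 and 48). Per length the order changed. Foxp4 and Foxk1 led with 15.5 and 15.4 sites per 100 kb, while Foxp1 had 10.2, Foxn3 10.1 and Foxp2 5.67, the last of these below the coding median.

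Foxo6 followed with 14.5 sites per 100 kb (32 sites, 53 and 32 peaks) although its promoter peak was called in 1 replicate only. Foxl1 had 12.8 (26 sites, 50 and 31 peaks), and Foxo3 had 12.5 (37 sites, 60 and 52 peaks). Foxd4, with no promoter peak, had 12.4 (25 sites, 32 and 33 peaks), of which 4 were nearest to it. A high density was therefore found beside both open and uncalled promoters.

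Among the craniofacial members, Foxc2 had 12.3 sites per 100 kb (25 sites, of which 1 was nearest to it), Foxf1 10.3 (21 sites) and Foxc1 10.2 (21 sites, of which 20 were nearest to it). Foxd2 had 8.39, Foxe1 8.38, Foxi3 8.31 and Foxd1 7.80. Foxj1 had 9.77 and Foxo1 10.2, and for Foxo1 all 29 sites were nearest to it. These 9 genes were above the coding median. Foxd3 was close to it at 6.92, and Foxl2 (5.90), Foxq1 (4.88) and Foxf2 (4.86) were below it.

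The 4 members below the coding lower quartile also had no shared promoter peak. Among them, Foxr2 had 0.934 per 100 kb (2 sites), Foxh1 2.97 (6 sites) and Foxb2 2.98 (6 sites). Foxp3 had 3.61 (8 sites), Foxa2 4.41 (9 sites), Foxb1 4.92 (10 sites) and Foxi1 5.40 (11 sites). Foxe3 (7.97), Foxa3 (8.56) and Foxr1 (9.16) stood higher. The Foxe3 window is mostly shared with Foxd2, and no site in the Foxa3 window is nearest to Foxa3. The 11 members not described gene by gene (Foxa1, Foxi2, Foxj2, Foxj3, Foxk2, Foxm1, Foxn1, Foxn2, Foxn4, Foxo4 and Foxs1) all had shared promoter peaks and between 3.44 and 10.02 sites per 100 kb.

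**Figure D3:**
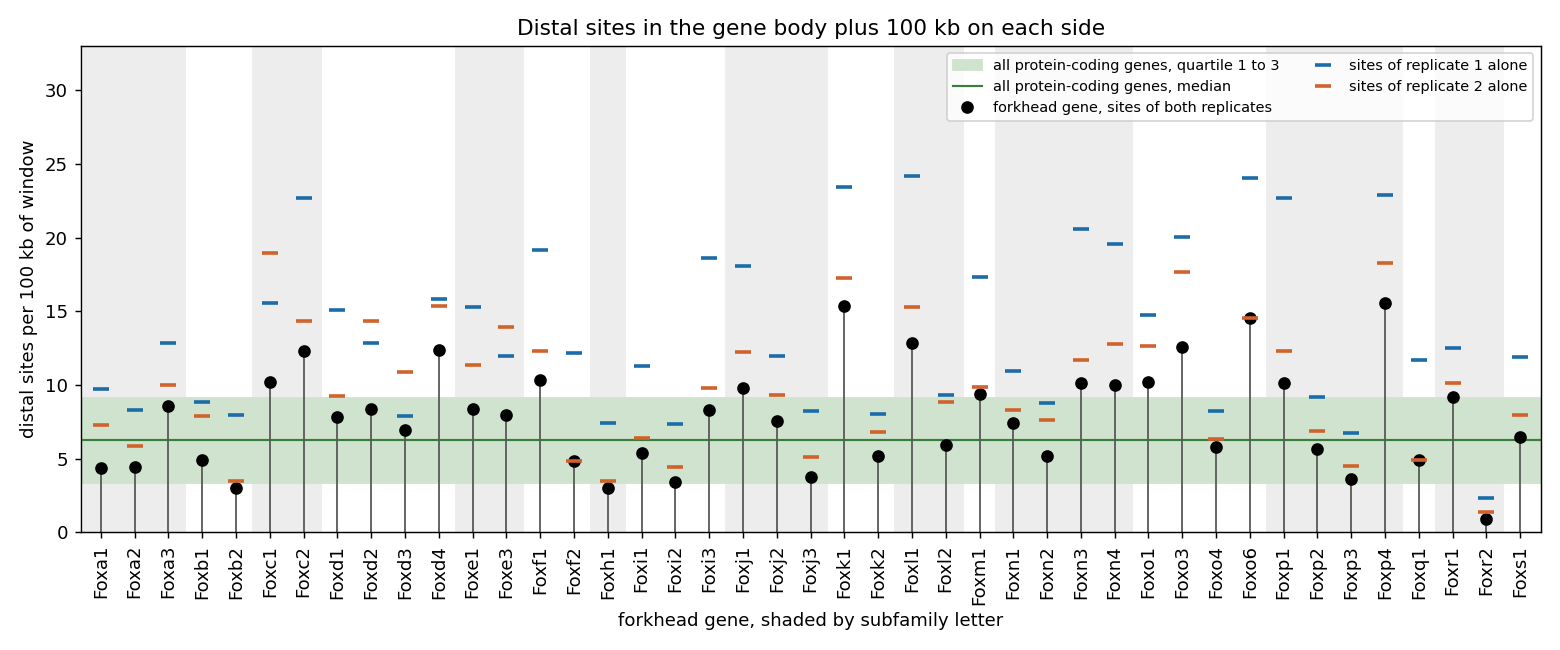
Distal sites per 100 kb of window for each forkhead gene, with points for sites of both replicates, dashes for each replicate alone, and the coding median (6.29) and quartiles (3.34 to 9.14) as a line and band. Foxp4 (15.5) and Foxk1 (15.4) stand highest and Foxr2 (0.934) lowest.

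Subfamily medians of distal density were highest for Foxo (11.4 sites per 100 kb, range 5.82 to 14.5), Foxc (11.3, 10.2 to 12.3) and Foxk (10.3, 5.20 to 15.4). Low medians were those of Foxh (2.97, 1 gene) and Foxb (3.95, 2.98 to 4.92). Members of a letter could lie far apart. Foxp ran from 3.61 at Foxp3 to 15.5 at Foxp4, and Foxl from 5.90 at Foxl2 to 12.8 at Foxl1. By distinct sites, Foxp held 171 and Foxn and Foxo 110 each.

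Several members are neighbours, and some of their sites fall in more than 1 window. Foxf1, Foxc2 and Foxl1 lie within 46.3 kb of chromosome 8, and Foxq1, Foxf2 and Foxc1 within 256 kb of chromosome 13, 2 clusters that hold FoxF and FoxC genes side by side. The chromosome 8 window held 29 distinct shared distal sites (11.8 per 100 kb), of which 23 fell in the windows of both Foxc2 and Foxl1, 20 in those of Foxc2 and Foxf1 and 18 in those of Foxf1 and Foxl1. The chromosome 13 window held 35 (7.67 per 100 kb), with 5 sites common to Foxf2 and Foxq1 and 1 to Foxc1 and Foxf2. The strongest chromosome 8 site is the one printed under Foxc2, and it is the highest ranked site in the windows of Foxf1, Foxc2 and Foxl1 alike. Foxd2 and Foxe3, on chromosome 4, also share most of their windows, with 16 sites in both. For the chromosome 8 members and for Foxd2 and Foxe3 a density describes the neighbourhood and cannot be given to 1 gene. The same holds in part for Foxf2 and Foxq1. Foxc1 overlaps least, with 20 of its 21 sites nearest to it, although nearness does not tell which gene a site serves.

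**Figure D4:**
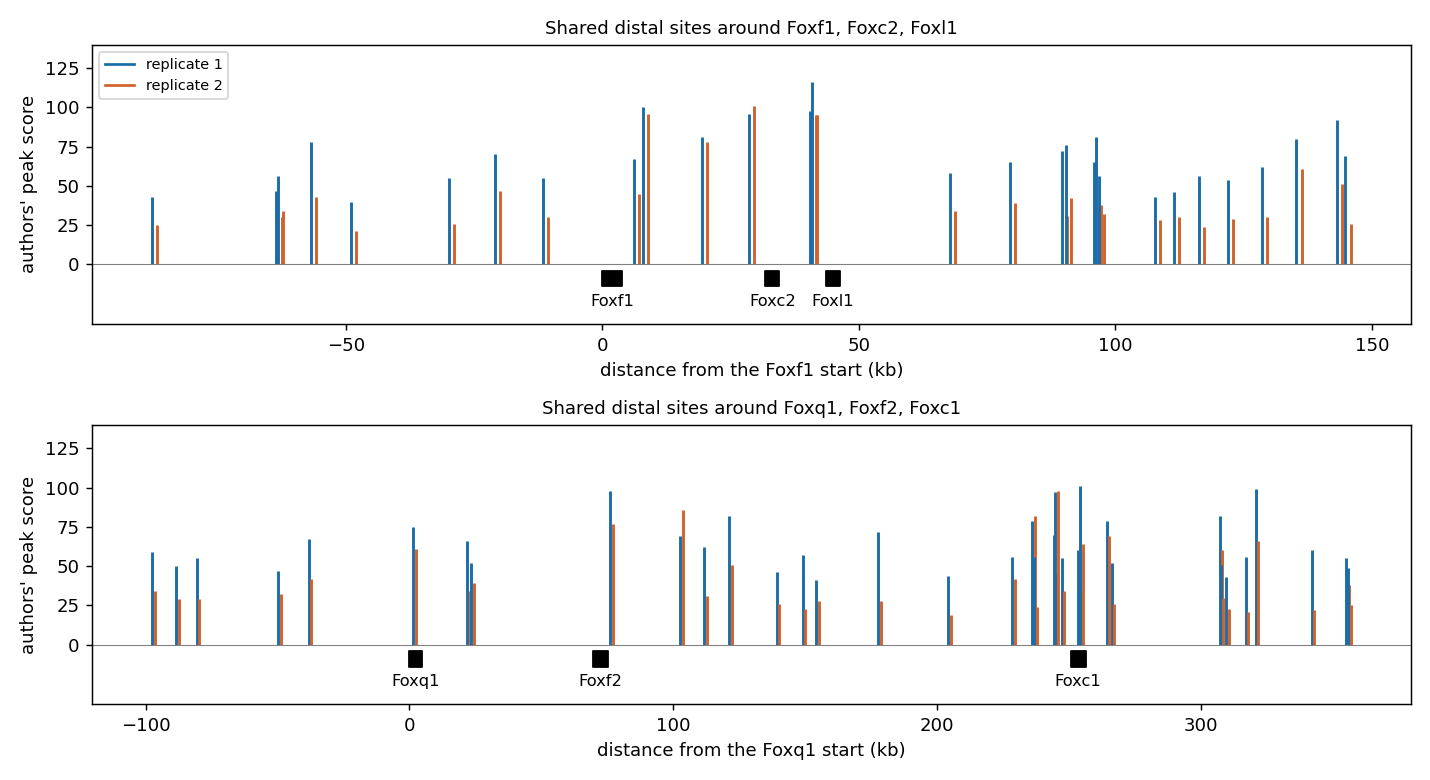
Maps of the 2 forkhead clusters, with black boxes for genes, distance from the first gene's start (kb) on the x axis and, for each shared distal site, 1 bar per replicate giving the authors' score. The bars of a site are drawn slightly apart, and the tallest site around Foxf1, Foxc2 and Foxl1, at 116 and 95, stands between Foxc2 and Foxl1.

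The replicates were compared around each gene as distal peaks of replicate 1 over those of replicate 2. The median ratio was 1.38 over the 19176 coding genes with at least 10 such peaks, with 1.03 and 1.93 as 10th and 90th percentiles, and 1.40 over the members, so most members followed the difference in list length. At the low end, Foxd3 had 16 distal peaks in replicate 1 and 23 in replicate 2 (ratio 0.696), Foxe3 24 and 31 (0.774) and Foxc1 32 and 41 (0.780), so each had more in the shorter list. At the other end Foxf2 had 25 and 10 (2.50), Foxq1 24 and 10 (2.40) and Foxb2 16 and 7 (2.29). In all, 6 members were below the 10th percentile and 4 above the 90th. Some of these windows overlap, so the counts repeat loci. Foxe3 shares 184 kb of its window with Foxd2 (26 and 32, ratio 0.8125), and Foxf2 shares 135 kb with Foxq1. Within the Foxe3 body and 2 kb on each side there was 1 peak in replicate 1 and 0 in replicate 2. With peaks at or above each list's median score, the Foxc1 ratio was 1.43, beside a coding median of 1.41.

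The replicates also differed in hotspot cover, the percent of a gene body plus 2 kb on each side that hotspots covered. This stretch lies inside the window of the distal counts, so the measures overlap in part and are not independent. At Foxc1 it was 14.2% in replicate 1 and 56.7% in replicate 2, and at Foxd3 it was 14.2% and 56.5%. Foxd4 (13.5% and 45.3%) and Foxe1 (12.8% and 32.8%) also had wider cover in replicate 2. These 4 of 44 members were covered at least 15 points more in replicate 2, against 0.232% of coding genes. In the opposite direction 2 members, among them Foxq1 (27.5% and 5.16%), were covered at least 15 points more in replicate 1, against 0.401% of coding genes. All genes named here are under 10 kb, where a single hotspot weighs more in the percent. The 90th percentiles of cover were 24.2% and 22.4% for coding genes under 10 kb, against 16.2% and 14.5% for all coding genes. The share of these shorter coding genes that pass 15 points was not counted. The limit of 15 points and these names were chosen after the values were seen.

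The wider cover in replicate 2 went with more peaks of low score. Within the Foxc1 body and its flanks, replicate 1 had 4 peaks with a median score of 82.5 and replicate 2 had 17 with a median of 34, which is below that list's median of 37. Foxd3 had 3 peaks (median 57) and 16 (median 27), and Foxe1 had 4 (median 45) and 12 (median 28). Foxd4 had 5 (median 49) and 8 (median 28). At Foxq1 the counts were 7 and 2. The next members were Foxd2, covered 20.9% and 30.6%, and, in the other direction, Foxf2, covered 13.1% and 3.18%. With the gene body alone the call for replicate 2 held for Foxc1, Foxd3 and Foxe1 but not Foxd4, and 3 members were called for replicate 1, among them Foxq1 and, newly, Foxe3. With 5 kb flanks it held for Foxc1, Foxd3 and Foxd4 but not Foxe1, and the replicate 1 call for Foxq1 was not kept.

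**Figure D5:**
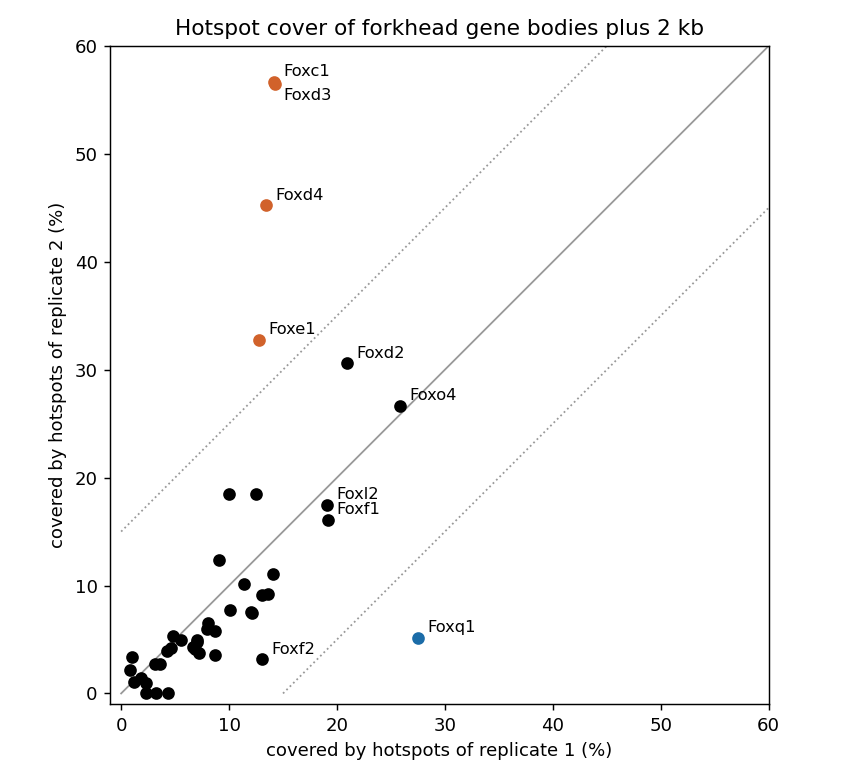
Percent of each forkhead gene body plus 2 kb on each side covered by hotspots of replicate 1 (x axis) and replicate 2 (y axis), with a solid line of equal cover and dotted lines 15 points away. Foxc1, Foxd3, Foxd4 and Foxe1 lie above the upper dotted line and Foxq1 below the lower one.

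Markers of neighbouring tissue also differed between the replicates. The 13 forebrain and eye markers had 321 distal peaks in each replicate, a ratio of 1.00. Zic2 (19 and 59 peaks) and Zic5 (21 and 61), neighbours whose windows overlap, carried this value, and the other 11 markers had 281 and 201, a ratio of 1.40. In hotspot cover, 3 of the 13 (Emx2, Zic2 and Zic5) were covered at least 15 points more in replicate 2, with Zic2 at 18.6% and 77.9%. Tbr1 of the same list went the other way, at 21.8% and 4.95%, and Neurog2 was at 23.1% and 8.77%. The 8 lower jaw markers had 309 and 179 distal peaks, a ratio of 1.73, or 216 and 132 (1.64) with each peak in overlapping windows counted once, and 2 of them were covered at least 15 points more in replicate 1, Dlx2 (33.7% and 5.32%) and Dlx5 (77.3% and 49.6%). Among facial mesenchyme markers, 2 of 13 were covered at least 15 points more in replicate 2, Msx1 (8.53% and 29.4%) and Twist1 (28.5% and 51.2%). The part of tissue makeup in the forkhead differences was not tested. Sequencing instruments are listed for replicate 1 only, so instrument and replicate cannot be told apart.

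Genes that work with forkhead factors were counted from lists drawn from general knowledge, beside 67.4% of coding genes with a shared promoter peak and a coding median of 6.29 sites per 100 kb. Of 15 hedgehog pathway genes, 13 had a shared promoter peak, all but Shh and Ihh, and the median density of the list was 12.1 sites per 100 kb. Both encode ligands, but the ligand gene Dhh had a shared promoter peak (59 and 54). Shh had a promoter peak of 45 in replicate 1 and none in replicate 2. Ihh had one of 26 in replicate 2 and none in replicate 1. All 15 genes of insulin, AKT and FoxO control (7.93), all 15 FoxO targets (10.1) and all 13 FoxM1 partners and targets (6.36) had a shared promoter peak. The share was 97.2% for coding genes with a CpG-rich start, and the start composition of the listed genes was not compared. The FoxJ1 cilia list gave 10 of 11 matched genes, without the dynein Dnah5, at 3.94 sites per 100 kb, and the FoxP partners gave 5 of 6, without Nkx2-1. The FoxH1 and nodal list gave 6 of 10, near the coding share. The 4 without were Nodal, its coreceptor gene Tdgf1 and the inhibitors Lefty1 and Lefty2. Nodal had promoter peaks in each replicate (highest scores 38 and 35), but these did not overlap. Tdgf1, Lefty1 and Lefty2 had none in either replicate, and neither did Foxh1 itself.

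The family's distal sites were set beside all distal sites by the strings they held. Each of the 10 strings was searched on both strands of the central 150 bases, where strings can overlap. The forkhead string TGTTTAC was in 26 of 810 sites (3.21%), against 2.57% of all distal sites, including 9 of 171 around Foxp genes and 5 of 110 around Foxo genes. It was in none of the 46 Foxc or 72 Foxd sites. The AP-2 string GCCNNNGGC was in 6.17% against 5.65%, and the CTCF motif, searched as 1 consensus, was in 8.15% against 5.70%. Lower shares were found for the E-boxes CAGCTG (17.2% against 19.5%) and CAGATG (17.0% against 18.7%), the SOX string ACAATG (6.67% against 7.83%), the TEAD string GGAATG (11.2% against 12.6%) and the AP-1 string TGANTCA (5.80% against 6.58%). TAATTA, a homeodomain string, was in 3.83% against 4.18%, and the Ets string CCGGAAG in 1.23% against 0.992%. No string moved by more than 3 percentage points, but that limit says little for strings held by few sites. The differences were not tested.

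At the start sites themselves, in the 300 bases from 250 before to 50 after, AP-2 was found for 11 of 44 members (25%, against 18.8% of coding genes) and CTCF for 8 (18.2% against 11.8%). Ets was found for 1 (2.27% against 11.2%) and CAGATG for 2 (4.55% against 14.6%). The forkhead string was in 1 member promoter (2.27% against 2.98%). The family's distal sites were somewhat richer in GC than all distal sites (median 51.7% against 48.7%). They lay closer to a start (median 11.3 kb against 18.1 kb), and their median scores were 62 and 41 against 60 and 38. Family sites lie by rule in a gene body or within 100 kb of it, while all distal sites include those far from genes. The shorter distance is thus partly set by the rule. Distal sites in the windows of other coding genes were not compared, for distance, GC or strings. A match is a string of letters and not a bound site.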

How the data were processed

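DNase-seq was measured in 2 replicates of embryonic facial prominence. The deposited peak lists give, per peak, the authors' score from 1 to 150, with no normalization stated. The deposited hotspot lists give the −log10 of a q-value, up to a ceiling of 100. Lists were made per replicate and not pooled, per the deposited descriptions. The build is mm10, per the labels. Aligner, caller, version and threshold: not given in the sources used here. Read depth is unknown, so no interval or limit from reads is given.

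Regions off the main chromosomes and repeated coordinates were left out. The basic GENCODE M21 annotation and GRCm38 sequence were used with Python 3.11.15, numpy 2.4.6, pysam 0.24.0 and matplotlib 3.10.9. Peaks were shared when they overlapped by 1 bp or more. Overlapping shared peaks were merged, and distal sites were assigned by midpoint. Counting was tested on simulated data. Coordinates are 1-based.

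The family was proposed, and the lists were drawn up, with earlier results of these data known. The genes described were those with craniofacial roles, the 5 with most sites, the 5 of highest density, all with no promoter peak or one in 1 replicate only, and the 3 highest and 3 lowest ratios, 33 in all. Values of 1 member in the counts are not reported here and not drawn. Sequences shown were picked from those the same rule gave. The 15-point limit, the stricter CpG definition, the cover flanks, the recounted marker ratios and the comprehensive annotation were chosen after seeing the data. No p-value was computed. Alternatives were overlap, score threshold, list length, hotspots, each replicate alone, promoter window, start sites, flank and distal limit.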

Additional observations from a re-analysis of the deposited data

How the results depend on the processing

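The count of members with a shared promoter peak ranged from 24 to 34 over the alternatives, and that of members with a promoter peak in 1 replicate only from 5 to 7. The number of shared distal sites in the family windows was 457 with peaks at or above each list's median score and 493 with flanks of 50 kb. With 1 replicate alone it ranged from 1012 to 1438. The median shared distal density of members was 3.91 per 100 kb with peaks at or above the median score (coding genes 2.94) and ranged from 9.55 to 12.07 with 1 replicate alone. It was above that of coding genes under each alternative run. The ratio of distal peaks at Foxc1 was 1.43 with peaks at or above the median score, on the other side of the coding median of 1.41, and the cause was not tested. With gene bodies plus 5 kb, 1 member was covered 15 points more in replicate 1, a comparison that averages over a longer stretch. Of 55 values that answer a comparison, 48 stayed within the limits set for them (1.5 times for a count, or the spread between replicates). So did 315 of 330 values of single members' promoters and 190 of 200 of the lists, but only 259 of 363 of single members' distal sites and 326 of 399 of subfamilies. Counting the sites nearest to each start, in place of gene body plus 100 kb, left 11 of 33 single members' distal values and 9 of 19 subfamily values within those limits. No paired analysis was possible because the series holds 1 group. Depth is unknown, so regions missing from a list cannot be given a limit.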
